A study of Mus musculus with 12 samples.

Results

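The genes described here encode tropomyosins (*Tpm1*, *Tpm2*, *Tpm3* and *Tpm4*), caldesmon (*Cald1*), leiomodin 1 (*Lmod1*), the heavy chains of non-muscle myosin IIA and IIB (*Myh9* and *Myh10*) and myosin light chain kinase (*Mylk*). They were chosen by symbol, and each of the 9 matched a single row among the 56980 genes of the count matrix. Bulk RNA-Seq was performed on W-20 cells, a murine bone marrow stromal cell (BMSC) line, in 4 groups of 3 libraries, 12 in all. WT cells, which carried no introduced gene, were exposed for 2 hours to 50 nM parathyroid hormone (PTH) or to an equal volume of vehicle (PBS). Y428F cells, which stably carried a plasmid for Flag-tagged YAP with a phenylalanine in place of a tyrosine, received the same PTH or vehicle for 2 hours. The comparisons ask how PTH changes transcription in stromal cells and whether that change differs in cells with a YAP that lacks this tyrosine.

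Several features limit the Y428F cells as a model. They were selected with puromycin and still carried their own *Yap1*, and no library came from cells given an unmutated YAP, so the mutation, the selection and the history of the line cannot be told apart. The library titles separate the lines, whereas the genotype label reads WT for all 12 libraries. The titles name the tyrosine substitution alone, but the study's text on the sequenced cells names with it an alanine in place of a serine of YAP, and the effects of these substitutions cannot be told apart here. *Yap1*, the gene whose protein was altered, had 189 ± 7.20 CPM (counts scaled by TMM to a common library size, mean ± SD, n = 3) in vehicle-treated WT cells and 147 ± 4.64 CPM in vehicle-treated Y428F cells. Gene counts do not separate reads of the introduced copy from those of the cell's own gene.

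Tropomyosins are coiled-coil proteins that lie end to end along actin filaments and set which other proteins can bind there. Caldesmon binds actin together with tropomyosin and restrains myosin, and leiomodin 1 starts new actin filaments in smooth muscle cells. Non-muscle myosin II pulls on the filaments once its regulatory light chain is phosphorylated. Myosin light chain kinase performs that step, and myosin phosphatase reverses it. In stromal cells these proteins build stress fibers, the contractile bundles through which a cell probes the stiffness of its surroundings, and YAP is known to respond to that tension.

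Library totals ranged from 17127897 to 19057319 expected counts, with a median of 17740980. Nothing in the labels says that the 3 libraries of a group came from separate cultures, so the p-values measure the spread between these libraries, which may be technical. Libraries of the same group were not identical within counting error (chi-square per degree of freedom from 2.87 to 14.2 for pairs). Long and short transcripts also deviated differently in some libraries. In each library the deviation of transcripts of at least 6 kb from the group mean was set against that of transcripts under 2 kb, and the difference in log2 expression was -0.13, 0.06 and 0.06 in the 3 WT vehicle libraries. It was 0.01, 0.12 and -0.13 in the WT PTH libraries, 0.01, 0.01 and -0.02 in the Y428F vehicle libraries, and -0.17, 0.16 and 0.02 in the Y428F PTH libraries. *Myh9*, *Myh10* and *Mylk* have canonical transcripts of 7439, 7803 and 7824 bases. Values of the 9 genes with this trend taken out are given where that changed a call.

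The stromal label was checked against 12 marker genes, which with vehicle summed to 22864 ± 1923 CPM in WT cells and to 14813 ± 589.5 CPM in Y428F cells. *Col1a2*, a chain of type I collagen, was the most abundant of them. *Thy1* had 0 counts in all 12 libraries, and *Nt5e* had at most 2 in any library. The skeletal muscle markers *Myod1* and *Myog*, which define that lineage, were also at 0 in every library. *Myh11*, the heavy chain that defines differentiated smooth muscle, stayed at 0.179 ± 0.108 CPM (vehicle) and 0.279 ± 0.0930 CPM (PTH) in WT cells.

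Levels of the 9 genes spanned a wide range, as seen in the plot of their values by library. Per kilobase of canonical transcript, WT cells with vehicle had 332 ± 6.86 CPM of *Tpm1* and 287 ± 12.4 CPM of *Tpm4*. *Cald1* followed with 177 ± 1.58 CPM per kb, *Myh9* with 95.1 ± 11.1 CPM per kb and *Tpm3* with 82.6 ± 1.54 CPM per kb. *Myh10* had 66.5 ± 7.65 CPM per kb and *Tpm2* had 59.6 ± 1.38 CPM per kb, 2 neighbors that did not differ beyond their spread. *Mylk* lay far lower at 2.41 ± 0.248 CPM per kb, and *Lmod1* was last at 0.0396 ± 0.0218 CPM per kb. *Tpm2* passed *Myh10* in the other groups, and the rest of the order was the same in all 4 groups. Gene counts add up all transcripts of a gene, and the annotation lists 80 for *Tpm1*, 56 for *Tpm3*, 43 for *Tpm2* and 17 for *Tpm4*, so muscle and non-muscle isoforms of a tropomyosin were not separated.

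**Figure D1:**
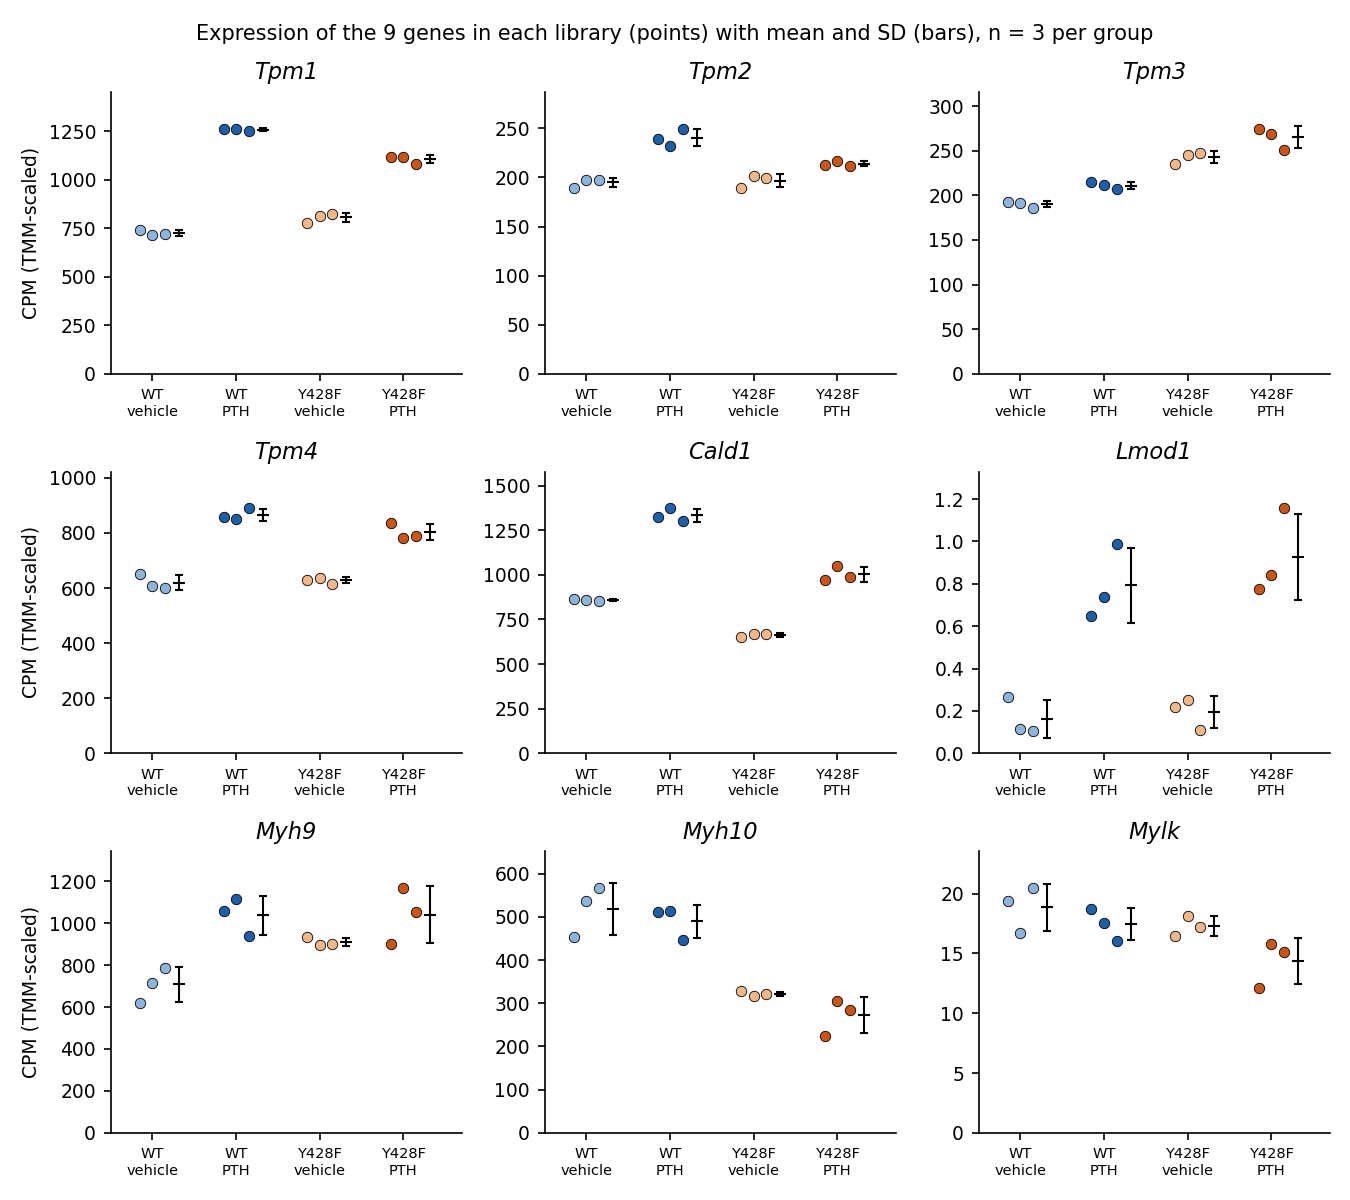
Expression of the 9 genes in CPM (TMM-scaled, linear axes from 0) in each of the 12 libraries, by group; points are libraries, and the bars beside them give the mean and SD of 3 libraries. *Tpm1*, *Tpm4* and *Cald1* lie higher with PTH than with vehicle in both lines, and *Myh10* lies lower in Y428F than in WT cells.

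In WT cells PTH raised 6 of the 9 genes and lowered none. *Tpm1*, *Tpm2*, *Tpm4*, *Cald1*, *Lmod1* and *Myh9* were called higher, and *Tpm3*, *Myh10* and *Mylk* were not called. A gene was called at an adjusted p under 0.05 in the quasi-likelihood test of edgeR, adjusted by Benjamini-Hochberg over all genes tested, a call made for 11.8% of the 15583 genes (6.88% higher). The 1837 genes called fell to 905 without PTH replicate 1, 1045 without vehicle replicate 3, 1060 without PTH replicate 2 and 1132 without vehicle replicate 2. The median log2 fold change of the 9 genes was 0.49, against -0.01 over all genes tested. Values of all 3 PTH libraries lay above all 3 vehicle libraries for 7 of the 9 genes, as was seen for 14.4% of all genes.

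*Tpm1* (ENSMUSG00000032366.16, from 66929870 to 66956953 on the minus strand of chromosome 9 in GRCm39) encodes the alpha tropomyosin of striated and smooth muscle and several shorter forms of other cells. WT libraries had 744, 716 and 720.1 CPM with vehicle and 1264, 1264 and 1250.5 CPM with PTH. The groups were far apart and each was tight. This was a log2 fold change of 0.80 (adjusted p = 2.45e-06, standard error 0.062), a 1.74-fold rise with a 95% interval of 1.59 to 1.91.

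*Tpm4* (ENSMUSG00000031799.11, from 72884018 to 72906987 on the plus strand of chromosome 8), a tropomyosin of non-muscle cells, had 650.4, 609 and 600.0 CPM with vehicle. With PTH it had 858, 849 and 889.7 CPM, and no library of one group reached into the other. *Tpm4* rose by 0.49 on the log2 scale (standard error 0.065, adjusted p = 0.000296). *Tpm2* (ENSMUSG00000028464.17, from 43514697 to 43524949 on the minus strand of chromosome 4), the beta tropomyosin, went from 189.7, 198 and 198 CPM to 239, 232 and 249.6 CPM. The groups did not overlap, and the change was 0.31 on the log2 scale (standard error 0.059, adjusted p = 0.00394).

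*Tpm3* (ENSMUSG00000027940.19, from 89979949 to 90008226 on the plus strand of chromosome 3) encodes a tropomyosin of slow muscle and of most other cells. It had 193, 192 and 186 CPM with vehicle and 214, 212 and 207 CPM with PTH. Although these libraries also did not overlap, the log2 fold change was only 0.16 and missed the threshold (standard error 0.056, adjusted p = 0.0906). It passed when the trend with transcript length was taken out (log2 fold change 0.23, adjusted p = 0.00824) and when vehicle replicate 1 was left out (0.18, adjusted p = 0.0448). The annotation holds a near copy of this gene, *Tpm3-rs7*, at 61.3 ± 1.35 and 70.0 ± 4.46 CPM, and counting could have split reads between them. Their sum was 251.5 ± 3.08 CPM with vehicle and 281 ± 7.42 CPM with PTH.

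*Cald1* (ENSMUSG00000029761.17, from 34575435 to 34752408 on the plus strand of chromosome 6), the partner of tropomyosin on actin, had 867, 861 and 852 CPM with vehicle. PTH libraries had 1326, 1373 and 1304 CPM, all well above. *Cald1* rose by 0.64 on the log2 scale (standard error 0.062, adjusted p = 1.94e-05). *Lmod1* (ENSMUSG00000048096.8, from 135252509 to 135295907 on the plus strand of chromosome 1) was near the limit of detection, with 5, 2 and 2 counts with vehicle. With PTH it had 11, 12 and 17 counts, so that the groups did not overlap but rested on 9 and 40 reads in all. The ratio of the pooled counts, scaled for depth, was 4.86, with an exact 95% counting interval from 2.32 to 11.4 that leaves out the spread between libraries. The fitted log2 fold change of *Lmod1* was 2.24 (standard error 0.59, adjusted p = 0.0264). This call was lost in 5 of the 6 fits without a library, those without vehicle replicates 2 or 3 and those without any of the PTH replicates, in which the log2 fold change was 2.03 to 2.38 and the adjusted p 0.0548 to 0.0926.

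*Myh9* (ENSMUSG00000022443.18, from 77644785 to 77726381 on the minus strand of chromosome 15) encodes the heavy chain of non-muscle myosin IIA. Vehicle libraries had 621, 716 and 786 CPM, and PTH libraries had 1060.1, 1115 and 937 CPM. The spread in each group was wide, but the lowest PTH library lay above the highest vehicle library. Its log2 fold change of 0.56 (standard error 0.088) had an adjusted p of 0.00114 and ranged from 0.49 to 0.65 in the fits without a library.

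*Myh10* (ENSMUSG00000020900.16, from 68582385 to 68707470 on the plus strand of chromosome 11), the heavy chain of non-muscle myosin IIB, did not follow. It had 452, 537 and 568 CPM with vehicle and 511, 513 and 446 CPM with PTH. The 2 groups overlapped, and the log2 fold change of -0.08 had a 95% interval from -0.26 to 0.11 (adjusted p = 0.658). *Mylk* (ENSMUSG00000022836.12, from 34565580 to 34822790 on the plus strand of chromosome 16), whose kinase activates both motors, had 19.4, 16.7 and 20.5 CPM with vehicle and 18.7, 17.5 and 16.1 CPM with PTH. Here the groups overlapped as well, at a log2 fold change of -0.11 and a 95% interval from -0.32 to 0.11 (adjusted p = 0.576). Exons of *Tpm1*, *Tpm4*, *Myh10* and *Mylk* overlap genes on the opposite strand, and the labels do not settle whether the libraries kept strand.

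Because *Myh9* and *Myh10* transcripts are of nearly equal length, their ratio within a library was hardly touched by the trend with length. Per kilobase, the ratio of *Myh9* to *Myh10* was 1.44, 1.40 and 1.45 in the WT vehicle libraries and 2.18, 2.28 and 2.20 in the WT PTH libraries. In Y428F cells it was 2.98, 2.97 and 2.94 with vehicle and 4.19, 4.01 and 3.87 with PTH. Each group was narrow, none overlapped another, and the ratio stepped up with PTH in both lines and from WT to Y428F cells. For each of the 4 pairs of groups that share a line or a treatment, the exact two-sided permutation test gave p = 0.1, the smallest value that 3 against 3 libraries allow. Non-muscle myosin IIA thus made up 58.8% ± 0.473 of the summed message for both heavy chains in WT cells with vehicle and 68.9% ± 0.509 with PTH. In Y428F cells it made up 74.8% ± 0.151 with vehicle and 80.1% ± 0.630 with PTH.

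The tropomyosin message also shifted in makeup. Summed over the 4 genes, it was 761 ± 18.7 CPM per kb in WT cells with vehicle and 1141 ± 8.02 CPM per kb with PTH. *Tpm1* held 43.6% ± 0.315 of this sum with vehicle and 50.4% ± 0.641 with PTH, and the share of *Tpm4* went from 37.7% ± 0.700 to 35.1% ± 0.633. The shares of *Tpm3*, from 10.9% ± 0.197 to 8.03% ± 0.187, and of *Tpm2*, from 7.84% ± 0.369 to 6.44% ± 0.189, were lower with PTH. In Y428F cells the sum was 825 ± 14.5 CPM per kb with vehicle and 1058 ± 24.4 CPM per kb with PTH, and *Tpm1* held 44.6% ± 0.640 and 47.8% ± 0.518 of it. *Tpm4* held 35.3% ± 0.901 of the Y428F sum with vehicle and 35.2% ± 0.712 with PTH. The share of *Tpm1* did not overlap between treatments in either line, where the exact permutation test again reached only its smallest p of 0.1. These shares depend on the transcript length used, and with the median length of the basic transcripts *Tpm1* held 49.7% in WT cells with vehicle and 56.6% with PTH.

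**Figure D2:**
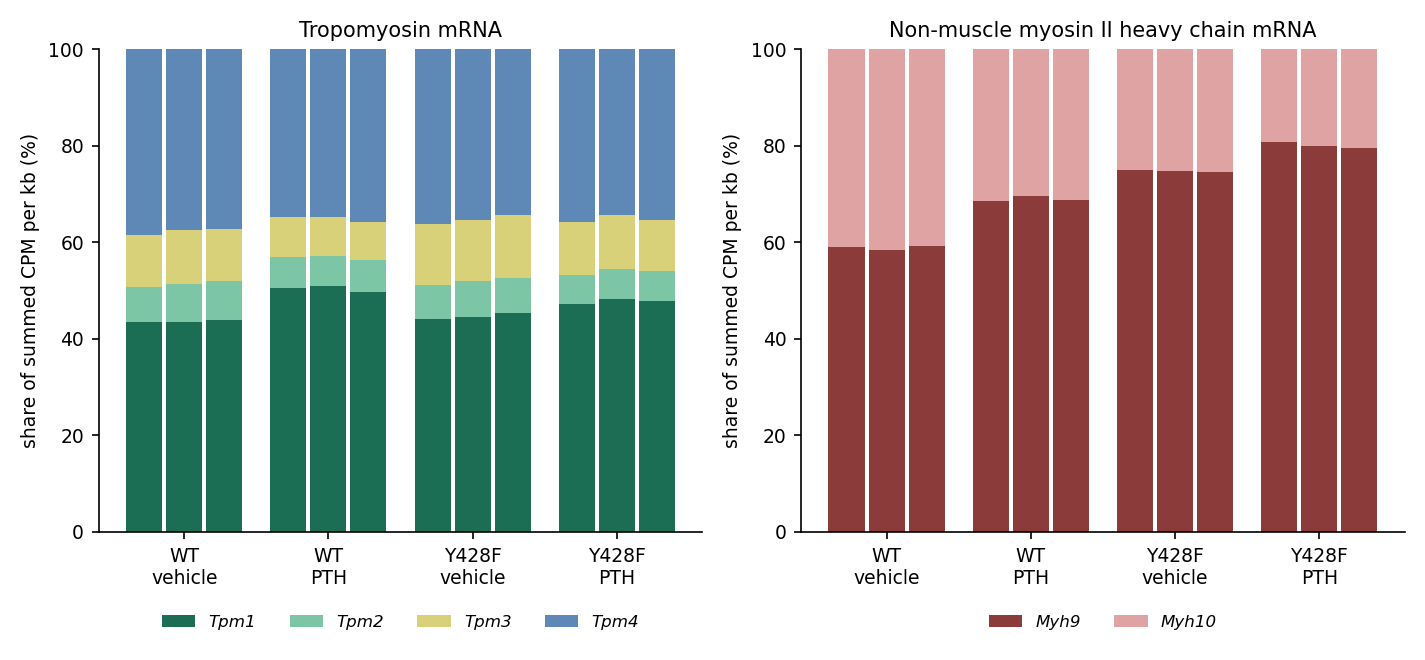
Share of the summed CPM per kb of canonical transcript (in percent, from 0 to 100) held by each tropomyosin gene and by each non-muscle myosin II heavy chain; each bar is a library, in groups of 3. The *Myh9* share steps up from 58.8% in WT cells with vehicle to 80.1% in Y428F cells with PTH, and the *Tpm1* share is highest in WT cells with PTH, at 50.4%.

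In Y428F cells PTH raised 4 of the 9 genes, *Tpm1*, *Tpm4*, *Cald1* and *Lmod1*, and lowered none, where 12.4% of the 17691 genes were called (6.61% higher). All 3 PTH libraries lay above all 3 vehicle libraries for 6 of the 9 genes, as they did for 15.5% of all genes. The median log2 fold change of the 9 genes was 0.19, against -0.01 over all genes. *Tpm1* libraries had 779.8, 815 and 824 CPM with vehicle and 1121, 1116 and 1084 CPM with PTH. The groups were again clearly apart, a rise of 0.46 on the log2 scale (standard error 0.050, adjusted p = 3e-06). *Cald1* had 649, 670.3 and 668 CPM with vehicle and 971, 1052 and 988 CPM with PTH. This rise, of 0.60 on the log2 scale (standard error 0.052, adjusted p = 1.38e-07), brought *Cald1* above the level of WT cells with vehicle in every library. *Tpm4* had 631, 638 and 616 CPM with vehicle and 836, 783 and 790.2 CPM with PTH, without overlap, a rise of 0.35 on the log2 scale (standard error 0.053, adjusted p = 0.000115).

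*Lmod1* in Y428F cells had 4, 5 and 2 counts with vehicle and 14, 15 and 21 counts with PTH. The pooled ratio was 4.74 (exact 95% counting interval 2.44 to 10.1), and the fitted log2 fold change was 2.21 (adjusted p = 0.00643). *Tpm2* and *Tpm3* libraries also did not overlap, at 189 to 201 CPM against 212 to 217 CPM and at 235 to 248 CPM against 251 to 275 CPM. Their log2 fold changes of 0.12 (adjusted p = 0.143) and 0.13 (adjusted p = 0.132) were not called. Both passed once the trend with length was removed, at 0.16 (adjusted p = 0.0228) and 0.17 (adjusted p = 0.0214), and *Tpm3* also passed in DESeq2 (0.13, adjusted p = 0.0495).

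*Myh9* did not clear the threshold in Y428F cells. Its libraries had 932, 898 and 898 CPM with vehicle and 899, 1169 and 1052 CPM with PTH. PTH replicate 1, the library with the strongest loss of long transcripts, lay among the vehicle libraries, and the other 2 lay above them. At 0.19 on the log2 scale (standard error 0.088), the change had an adjusted p of 0.179. Without PTH replicate 1 it was 0.29 (adjusted p = 0.0293), with the trend of length taken out it was 0.22 (adjusted p = 0.0307), and with no filter on low counts it was 0.20 (adjusted p = 0.0157). The estimates of *Myh10* and *Mylk* were below 0. *Myh10* had 328, 317 and 321 CPM with vehicle and 225, 306 and 285 CPM with PTH. The log2 fold change of *Myh10* was -0.24 (standard error 0.093, adjusted p = 0.102), and it passed at -0.22 with the trend taken out (adjusted p = 0.0434), at -0.24 without WT vehicle replicate 1 (adjusted p = 0.0499) and at -0.33 without PTH replicate 2 (adjusted p = 0.0278). It also passed at -0.28 with library totals alone (adjusted p = 0.0372) and at -0.24 with no filter on low counts (adjusted p = 0.00327). *Mylk* had 16.5, 18.1 and 17.2 CPM with vehicle and 12.1, 15.8 and 15.1 CPM with PTH, and at -0.27 on the log2 scale it was not called (adjusted p = 0.118).

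The difference in response was tested with an interaction term. It was called for 1 of the 9 genes, *Tpm1*, among 0.413% of the 17691 genes (0.243% lower), 73 genes in all (1247 had an unadjusted p under 0.05). In the fits without a library, the 73 became 24 (without Y428F PTH replicate 3) to 89 (without WT PTH replicate 3). The rise of *Tpm1* was smaller in Y428F cells by 0.34 on the log2 scale (Y428F minus WT -0.34, standard error 0.071, 95% interval -0.48 to -0.19, adjusted p = 0.0344). The 3 Y428F vehicle libraries lay above the 3 WT vehicle libraries, and the 3 Y428F PTH libraries lay below the 3 WT PTH libraries, so that the smaller rise began higher and ended lower. The call was lost in 8 of the 12 fits without a library, although the difference stayed between -0.36 and -0.33 in all 12. Those 8 left out WT vehicle replicates 2 or 3, WT PTH replicates 1 or 2, Y428F PTH replicate 3 or any of the Y428F vehicle replicates, with an adjusted p from 0.0614 to 0.145.

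The responses of the other 8 genes could not be told apart between the lines at this threshold. All 9 estimates were below 0, with a median of -0.16, against 0.00 over all genes. For *Cald1* the interval of the difference was narrow, from -0.19 to 0.12 around an estimate of -0.03 (adjusted p = 0.972). For *Tpm4* it ran from -0.28 to 0.03 and for *Tpm3* from -0.18 to 0.13. The intervals of *Myh9*, from -0.62 to -0.10 (estimate -0.36, adjusted p = 0.441), and of *Tpm2*, from -0.33 to -0.03 (estimate -0.18, adjusted p = 0.598), lay below 0 before the adjustment over all genes. The call of *Myh9* depended on the filter, since it passed with no filter on low counts (adjusted p = 0.00899). For *Lmod1* the interval, from -1.31 to 1.26, was too wide to be read.

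**Figure D3:**
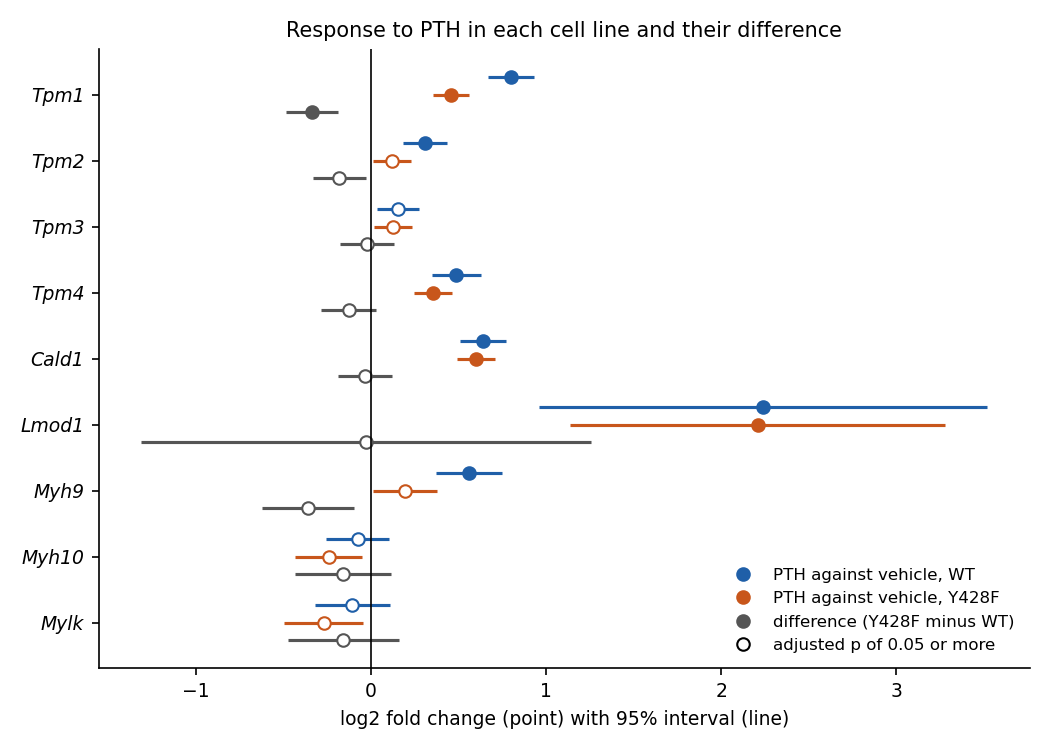
Log2 fold change with PTH (points) with its 95% interval (lines) for each of the 9 genes in WT and in Y428F cells. The difference in response (Y428F minus WT) is drawn beside them with its interval. Open points had an adjusted p of 0.05 or more. The intervals of *Tpm1* do not meet (0.67 to 0.93 in WT and 0.35 to 0.56 in Y428F cells), whereas those of *Cald1* almost coincide.

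Genes that rose together were set against the sequence just before their start sites. YAP acts on genes through TEAD factors, which are known to bind GGAATG. CREB, a factor downstream of cAMP, is known to bind TGACGTCA and its first part, TGACG, and the factor SRF, which drives many actomyosin genes, binds the CArG box. Promoter windows from 250 bases before to 50 after the start (RefSeq, GRCm38.p6) were found for all 9 genes, 11 windows in all, and both strands were searched. GGAATG was in 5 windows of 5 genes (*Tpm1*, *Cald1*, *Lmod1*, *Myh10* and *Mylk*), and 14.7% of all 32817 windows hold it. TGACG was in 4 windows of 3 genes (*Tpm1*, *Tpm4* and *Cald1*), against 20.8% of all windows. TGACGTCA and the CArG box were in none of the 11, against 1.79% and 1.63% of all windows, which says only that these letters are not in these windows. The 5 genes with GGAATG were 3 that rose with PTH in both lines and 2 that were not called in either. A match describes letters and not a bound site.

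The promoter of *Tpm1*, the gene with the difference in response, is shown over the 250 bases before its start (chr9:67049214-67049463, minus strand, GRCm38.p6), with GGAATG and the reverse complement of TGACG in capitals.
Tpm1: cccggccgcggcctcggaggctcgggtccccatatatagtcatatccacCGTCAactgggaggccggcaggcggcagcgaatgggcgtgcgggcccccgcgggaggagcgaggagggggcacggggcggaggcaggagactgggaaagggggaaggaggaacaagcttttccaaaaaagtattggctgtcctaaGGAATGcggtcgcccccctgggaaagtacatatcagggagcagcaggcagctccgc

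The other 4 genes with a match are shown over 60 bases around it, with GGAATG or its reverse complement in capitals, so that the neighborhoods of genes that rose (*Cald1* and *Lmod1*) and of genes that did not (*Myh10* and *Mylk*) can be set side by side. All are on the plus strand of GRCm38.p6, at chr6:34598324-34598383 for *Cald1*, chr1:135324656-135324715 for *Lmod1*, chr11:68691855-68691914 for *Myh10* and chr16:34784765-34784824 for *Mylk*.
Cald1: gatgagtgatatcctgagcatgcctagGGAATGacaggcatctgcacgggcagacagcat
Lmod1: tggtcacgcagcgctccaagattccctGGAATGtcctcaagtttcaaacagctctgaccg
Myh10: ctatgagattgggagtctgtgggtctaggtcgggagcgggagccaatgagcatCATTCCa
Mylk: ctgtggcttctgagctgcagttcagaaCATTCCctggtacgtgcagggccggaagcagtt
In *Tpm1* the GGAATG began 56 bases before the start, in *Lmod1* 130 and in *Cald1* 153 bases before it. In *Myh10* the reverse complement reached from 7 to 2 bases before the start and in *Mylk* from 158 to 153.

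Y428F cells with vehicle differed from WT cells with vehicle in 5 of the 9 genes, 3 higher (*Tpm1*, *Tpm3* and *Myh9*) and 2 lower (*Cald1* and *Myh10*). A call was common in this comparison, made for 45.1% of the 17691 genes (22.4% higher and 22.7% lower), so the count itself is near the background. *Myh10* differed most, with 328, 317 and 321 CPM in Y428F cells against 452, 537 and 568 CPM in WT cells, or -0.69 on the log2 scale (standard error 0.093, adjusted p = 2.93e-06). *Myh9* was higher by 0.36 on the log2 scale (standard error 0.089, adjusted p = 0.00199), so that the paired heavy chains lay on opposite sides. *Cald1* was lower in every Y428F library, at -0.38 on the log2 scale (adjusted p = 3.99e-06), and *Tpm3* was higher in every one, by 0.35 on that scale (adjusted p = 1.06e-05). The near copy *Tpm3-rs7* was higher as well, by 0.58 on the log2 scale (adjusted p = 3.83e-08). The log2 fold change of *Tpm1* was 0.15 (adjusted p = 0.0182), and its call was lost with the trend of length taken out (0.09, adjusted p = 0.146) and without WT vehicle replicate 2 or Y428F vehicle replicates 2 or 3 (0.13 to 0.14, adjusted p 0.0575 to 0.0823).

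*Tpm2* and *Tpm4* showed little difference between the lines with vehicle. The log2 fold change of *Tpm2* was 0.01, with a 95% interval from -0.09 to 0.12, and that of *Tpm4* was 0.02, from -0.09 to 0.13. *Mylk* had a log2 fold change of -0.13, from -0.35 to 0.09. *Lmod1*, at 11 counts against 9 over the 3 libraries of each group, could not be compared at this depth.

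With PTH the lines differed in 6 of the 9 genes, 1 higher (*Tpm3*) and 5 lower (*Tpm1*, *Tpm2*, *Cald1*, *Myh10* and *Mylk*), where 45.7% of all genes were called (22.8% higher and 23% lower). *Myh10* was at 225, 306 and 285 CPM against 511, 513 and 446 CPM, or -0.85 on the log2 scale (standard error 0.093, adjusted p = 1.81e-07). *Cald1* kept a log2 fold change of -0.41 (adjusted p = 1.18e-06), and *Tpm3* one of 0.33 (adjusted p = 2.33e-05). *Tpm1* was now lower in Y428F cells, at -0.19 on the log2 scale (standard error 0.050, adjusted p = 0.0041), and *Tpm2* was lower too, at -0.17 (adjusted p = 0.0107). Scaling by library totals alone ended both calls, at -0.12 (adjusted p = 0.0547) and -0.10 (adjusted p = 0.12). For *Myh9* the log2 fold change was 0.00, with a 95% interval from -0.18 to 0.19. *Mylk* was lower by a log2 fold change of -0.28 (adjusted p = 0.0388), a call lost without WT PTH replicates 1 or 2 or Y428F PTH replicate 1 (-0.27 to -0.19, adjusted p 0.0876 to 0.175), with library totals alone (-0.22, adjusted p = 0.105) and in DESeq2 (-0.28, adjusted p = 0.0578). *Tpm4*, at -0.11 (adjusted p = 0.106), was called without WT vehicle replicate 1 (-0.12, adjusted p = 0.0439) or Y428F PTH replicate 1 (-0.15, adjusted p = 0.0447), and at -0.20 with the trend of length taken out (adjusted p = 0.00071).

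**Figure D4:**
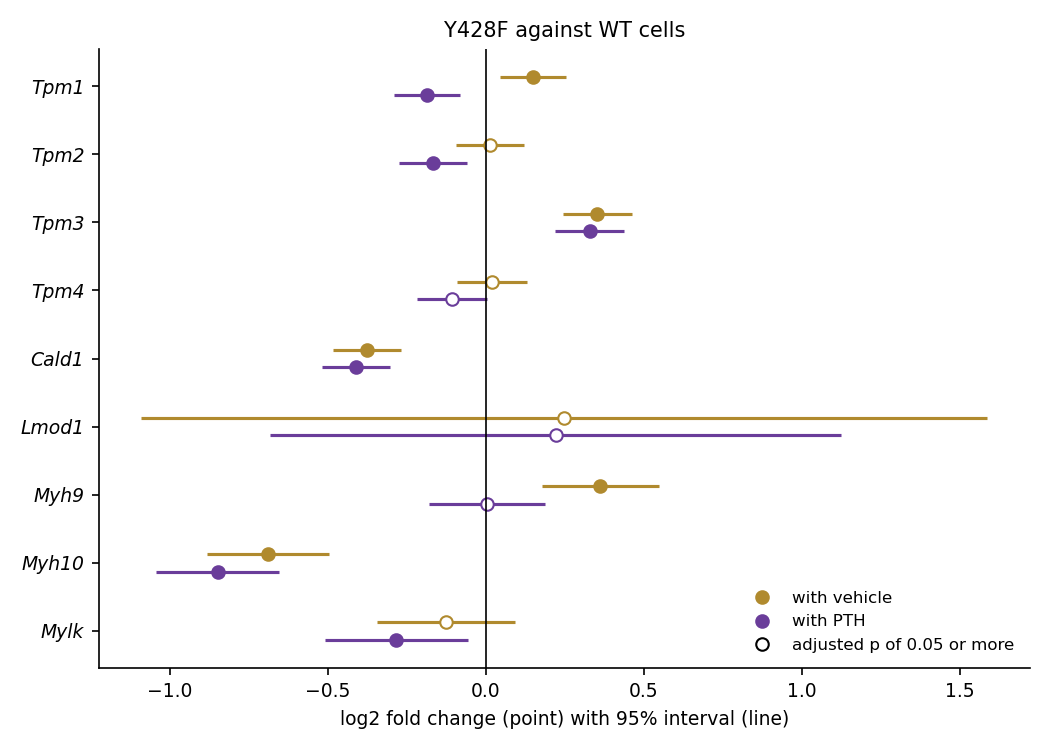
Log2 fold change of Y428F against WT cells (points) with its 95% interval (lines) for each of the 9 genes, with vehicle and with PTH; open points had an adjusted p of 0.05 or more. *Tpm1* lies above 0 with vehicle and below 0 with PTH, and *Myh10* lies furthest below 0 with both.

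The lines also differed by whole chromosomes, which bears on single genes. Over genes whose mean reached 4 CPM, the median log2 fold change of Y428F against WT cells with vehicle was -0.24 over the 572 genes of chromosome 9, where *Tpm1* lies, and 76.9% of these genes were lower. *Tpm1*, at 0.15, stood on the other side of its chromosome's median. The medians were 0.18 for chromosome 11, which holds *Myh10*, 0.20 for chromosome 15, which holds *Myh9*, -0.16 for chromosome 6, which holds *Cald1*, and -0.17 for chromosome 3, which holds *Tpm3*. The low *Myh10* and the high *Tpm3* therefore also lay on the other side of their chromosomes. *Myh9* (0.36) and *Cald1* (-0.38) lay on the same side as theirs. Between the lines with PTH, *Tpm1* (-0.19, chromosome median -0.26), *Tpm2* (-0.17, median -0.06) and *Cald1* (-0.41, median -0.12) lay on the same side. *Tpm4*, which was not called, was at -0.11 against a median of -0.12. The called *Tpm3*, *Myh10* and *Mylk* lay on the other side with PTH. In the PTH responses the medians of these chromosomes were within 0.06 of 0. The part of these shifts in the differences between the lines was not tested.

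Genes that work with the 9 were followed in 8 lists with 100 genes. In WT cells 64 of them were tested, 20 were higher and 1 was lower with PTH. In Y428F cells 75 were tested, 15 were higher and 4 were lower. Over all genes tested, 6.88% were higher in WT and 6.61% in Y428F cells. Called lower were 765 of 15583 genes in WT and 1022 of 17691 genes in Y428F cells. Between the lines 18 of the 75 were higher and 17 lower with vehicle, and 17 were higher and 22 lower with PTH, shares near the 45.1% and 45.7% called over all genes. The difference in response was called for 1 of the 75, the light chain gene *Myl9*, where 0.413% of all genes were called.

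Of the myosin II light chains, 1 of 7 tested was higher with PTH in WT cells and 2 of 8 in Y428F cells, too few to be set apart from the 6.88% and 6.61% called higher over all genes. *Myl12a*, called higher with PTH in Y428F cells (0.31, adjusted p = 0.0123), lost this call in 3 of the 12 fits without a library. *Myl9*, the regulatory light chain of smooth muscle and stress fiber myosin, had 102 ± 0.257 CPM in WT cells with vehicle and 238 ± 9.17 CPM with PTH, a rise of 1.23 on the log2 scale (adjusted p = 2.49e-08). In Y428F cells *Myl9* had 49.2 ± 1.87 and 78.2 ± 1.96 CPM, a rise of 0.67 (adjusted p = 8.66e-08), and the responses differed by -0.55 (standard error 0.076, adjusted p = 0.000997). Its level in Y428F cells with PTH was thus below that of WT cells with vehicle. *Myl12b*, which encodes a regulatory light chain of non-muscle myosin, was lower in Y428F cells by a log2 fold change of -1.35 with vehicle and -1.16 with PTH. *Myl12a*, a gene for a similar chain, was higher by 0.25 and 0.29.

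*Ppp1r12b* (log2 fold change 1.03 in WT and 0.54 in Y428F cells) and *Ppp1r12a* (0.81 and 0.39), which encode targeting subunits of myosin phosphatase, were higher in both lines. *Ppp1r12c*, which encodes another such subunit, had log2 fold changes of -0.17 and -0.14 and was not called. The citron kinase gene *Cit*, known for its role in cell division, was higher in Y428F than in WT cells by 1.29 with vehicle and 1.40 with PTH.

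Of 14 actin crosslinking and severing genes tested, 8 were higher with PTH in WT cells, where 6.88% of all genes were, and none was lower, with a list median of 0.28. In Y428F cells, where 6.61% of all genes were higher, 3 were higher and 1 was lower, with a median of 0.18. The lower gene, *Svil* (-0.25, adjusted p = 0.0297), lost its call in 4 of the 12 fits without a library. *Cfl2* (0.22, adjusted p = 0.0161), among those higher, lost its call in 2 of these fits. *Dstn*, which encodes the depolymerizing factor destrin, had log2 fold changes of 0.74 in WT and 0.54 in Y428F cells, and the crosslinker alpha-actinin 1, *Actn1*, had 0.43 and 0.33. *Pls3*, which encodes the bundling protein plastin 3, was higher in WT cells by 0.55 (adjusted p = 0.00023) and had 0.19 in Y428F cells (adjusted p = 0.0618). The difference in response of *Pls3* was not called (-0.36, adjusted p = 0.117). Of 14 unconventional myosins tested in WT cells 4 were higher, among them *Myo1e* (0.68), *Myo10* (0.63) and *Myo1c* (0.55), motors of the cell membrane and of filopodia. The fourth, *Myo9a* (0.26), lost its call in 4 of the 6 fits without a library, those without vehicle replicates 1 or 2 or PTH replicates 1 or 2. In Y428F cells 3 of 19 were higher, these same motors at 0.51, 0.45 and 0.24 on the log2 scale, and 1 was lower, *Myo7a* (-0.40, adjusted p = 0.00905), a call lost without Y428F PTH replicate 1 (adjusted p = 0.0501). These counts too stand against the 6.88% and 6.61% of all genes called higher. For lower calls the counts over all genes were 765 of 15583 in WT and 1022 of 17691 in Y428F cells.

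*Tmod3*, the tropomodulin that caps the slow-growing end of tropomyosin-coated filaments, rose by 0.28 in WT and 0.21 in Y428F cells on the log2 scale. Each *Tmod3* call was lost without 1 library, WT PTH replicate 1 (adjusted p = 0.0613) and Y428F vehicle replicate 2 (adjusted p = 0.0515). With vehicle, *Tmod1* was at 3.17 ± 0.483 CPM in WT cells and at 0.297 ± 0.175 CPM in Y428F cells. Of the 12 other myosin II heavy chain genes, 2 were tested in WT cells and 4 in the fit of 12 libraries, and none was called in any comparison. The troponin genes, the partners of tropomyosin in striated muscle, had no call with PTH in either line among 5 and 7 tested.

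**Figure D5:**
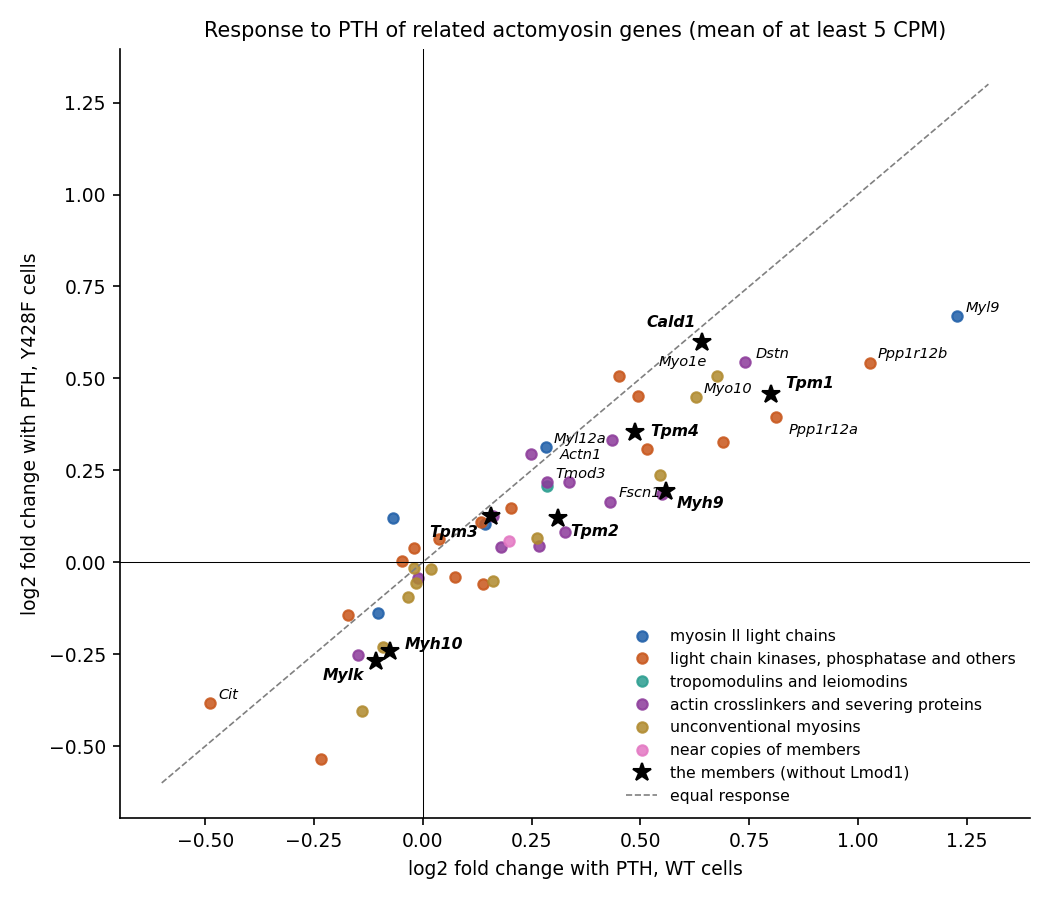
Log2 fold change with PTH in WT cells (horizontal) and in Y428F cells (vertical) for 47 related genes whose mean reached 5 CPM, colored by list, with 8 of the 9 genes as stars; the dashed line marks an equal response. *Myl9*, *Ppp1r12b* and *Tpm1* lie below that line, and *Cald1* lies close to it.

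Some smooth muscle markers also rose with PTH. The summed level of all 8 was 357, 322 and 343 CPM in the WT vehicle libraries and 972, 940.3 and 981 CPM in the WT PTH libraries. It was 305, 300.1 and 322 CPM in the Y428F vehicle libraries and 578, 557 and 524 CPM in the Y428F PTH libraries. Of the 8 markers, 4 were higher with PTH in WT and 5 in Y428F cells (6.88% and 6.61% of all genes were), and none was at 0 in all libraries. *Smtn*, which encodes smoothelin, was the most abundant in WT cells with vehicle at 135 ± 9.10 CPM, and it was not called in either line (0.02 and -0.11 on the log2 scale). *Des*, which encodes desmin, was not called either (0.06 and -0.12). *Acta2*, smooth muscle alpha-actin, was the most abundant in the other 3 groups, with log2 fold changes of 2.19 and 1.17, and the difference in response of *Acta2* was -1.02 (adjusted p = 7.34e-05). *Myh11*, the defining marker, was not called (adjusted p = 0.692 in WT and 0.989 in Y428F cells). Of 10 stromal markers tested, 1 was higher and 1 lower with PTH in WT cells, and 1 was higher and 2 were lower in Y428F cells. *Cd44* was the higher one (0.34 in WT and 0.31 in Y428F cells), and *Pdgfra* was lower in both lines (-0.59 and -0.73). *Col1a1* was lower in Y428F cells (-0.33, adjusted p = 0.0218) and not called in WT cells. In bulk RNA, more cells of a type and more RNA per cell cannot be told apart. The part of these markers in the results of the 9 genes was not tested.

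Patterns across all 12 libraries grouped the 9 genes. Pearson's r of log2 CPM was 0.98 between *Tpm1* and *Tpm4*, 0.92 between *Tpm1* and *Tpm2*, and 0.83 between *Tpm1* and *Cald1*. *Tpm3* ran against *Myh10* (r = -0.93), and *Myh10* ran with *Mylk* (r = 0.75). These are descriptions over 12 libraries that share treatment, line and the trend with length. Of the 9096 genes whose mean reached 10 CPM, those most like *Tpm1* were *Mbnl1* (r = 0.994), an RNA splicing factor, *Acta2* (r = 0.992) and *Fhdc1* (r = 0.989). Most like *Tpm4* were *Cdc42ep3* (r = 0.992), *Csrp1* (r = 0.989) and *Exoc5* (r = 0.981), and most like *Tpm2* was *Palld* (r = 0.960), which encodes the actin scaffold palladin. *Myh9* was nearest to *Atp2a2* (r = 0.972) and to *Flna* (r = 0.965), the filamin that crosslinks actin, whereas *Myh10* was nearest to *Nisch* (r = 0.996) and to the collagen gene *Col5a1* (r = 0.993). *Tpm3* was nearest to *Psmd1* (r = 0.993), a proteasome subunit gene, *Cald1* to *Tmem168* (r = 0.986), *Lmod1* to *Nipa2* (r = 0.973) and *Mylk* to *Mxi1* (r = 0.906). With only 2 to 21 counts of *Lmod1* per library, its nearest gene is poorly determined.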

How the data were processed

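Bulk RNA-Seq of 12 libraries of W-20 cells was used. Per the labels and methods, the authors aligned reads with STAR 2.7.10b (GRCm39, GENCODE basic annotation) and deposited unscaled RSEM expected counts per gene. Counts were rounded to whole numbers (93.9% were whole already) and fitted with edgeR 4.0.16 in R 4.3.3, with TMM scaling, for genes whose counts summed to 10 or more. The PTH response of WT cells was fitted on the 6 WT libraries and the other comparisons on all 12. Quasi-likelihood p-values were adjusted by Benjamini-Hochberg, with calls under 0.05. Symbols, positions and lengths came from GENCODE vM39 (56236 identifiers matched, 744 did not), and promoters from RefSeq.

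Groups came from the library titles. The members, lists, tests and rule for named genes were chosen with earlier results of these data known. Named were the 9 genes, *Yap1*, near copies, up to 4 called genes of each list and comparison with the largest changes, marker genes, and for each gene the 3 most alike over the libraries. *Ppp1r12c* was added outside this rule. Counting intervals cover counting error only. The authors' DESeq2 results were not used. Alternatives were DESeq2 1.42.0, other scalings and filters, a replicate block, a length correction and fits without each library. The length correction took out, per library, a smooth trend on transcript length of log counts relative to the mean of all libraries fitted. The fits were tested on simulated data. Values of some genes of the lists, and of one list, are not reported here.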

Additional observations from a re-analysis of the deposited data

Results flagged for a closer look

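The response to PTH differed between the lines by the interaction test for 73 of 17691 genes (edgeR, Benjamini-Hochberg). In the fits without a library this count was 24 to 89. Those of the 73 among the 9 genes, the related lists and the markers are given here. *Tpm1* responded less in Y428F cells, by -0.34 on the log2 scale (Y428F minus WT), with rises in all 3 PTH libraries of each line. Its call was lost in 8 of the 12 fits without a library (adjusted p 0.0614 to 0.145) and with a threshold of 0.01 on the adjusted p. *Myl9*, which encodes a myosin regulatory light chain, had a difference of -0.55 and kept its call under all 21 alternatives. The smooth muscle markers *Acta2* (-1.02), *Cnn1* (-1.33) and *Tagln* (-0.55, adjusted p = 0.0289) differed in the same direction. The call of *Tagln* was lost in 9 of the 12 fits without a library, where its adjusted p was 0.0506 to 0.126.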

How the results depend on the processing

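Of 901 recomputed log2 fold changes of the 9 genes, 822 kept their direction and their side of the threshold, 31 lost and 23 gained a call, and 25 changed sign, none of them a called value. The number of the 9 genes called for PTH in Y428F cells rose from 4 to 8 with the length correction, with or without the replicate block. With PTH, the number that differed between the lines fell from 6 to 3 with library totals alone and with the stricter threshold (adjusted p under 0.01, log2 fold change beyond 0.3). Of all 17691 genes, 8299 were called with library totals and 5586 with the stricter threshold, in place of 8093. For the difference in response the number of the 9 genes called went from 1 to 2 with no filter on low counts. It went to 0 with the stricter threshold, and was 0 to 1 with each library left out. The cause was not tested.

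Signs changed only for values near 0. With vehicle, the log2 difference between lines of *Tpm2* became -0.021 and that of *Tpm4* became -0.044 with the length correction (-0.020 and -0.044 with the block added), and without single libraries they ranged from -0.0082 to 0.034 and from -0.00070 to 0.053. With PTH, that of *Myh9* was -0.0014 with the replicate block and -0.10 to 0.088 without single libraries. The difference in response of *Lmod1* ranged from -0.57 to 0.20 and that of *Tpm3* from -0.056 to 0.0077 in those fits. *Lmod1* had no value where 10 counts were required in every library, and DESeq2 gave it no adjusted p.

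Same-numbered libraries were not alike (mean correlation of residuals 0.019 over 18 pairs, range -0.18 to 0.34, and -0.009 over 36 other pairs), and 3 of 12 libraries correlated best with their own number, so the numbers were not taken as pairs. With the replicate block, 1643 in place of 1837 genes were called for PTH in WT cells. Without single libraries this count was 905 to 2211, and that in Y428F cells was 1435 (without vehicle replicate 1) to 2515 in place of 2192. Library totals alone gave 744 higher and 1216 lower genes in WT cells, in place of 1072 and 765, and 888 and 1445 in Y428F cells, in place of 1170 and 1022. The length correction gave 1891 and 642, and 1838 and 963. Genes called for the difference in response numbered 22 (stricter threshold) to 216 (no filter on low counts) in place of 73. Leaving out single libraries gave 24 to 89. Depth limits *Lmod1* most, with 2 to 21 counts per library.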

Other observations

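Endothelial, epithelial, haematopoietic and skeletal muscle markers were at low levels in both lines, and few of them were tested. Between the lines with vehicle 45.1% of all genes were called (22.4% higher and 22.7% lower), against which the counts of these short lists stand. The endothelial markers with vehicle summed to 0.882 ± 0.274 CPM in WT cells and to 8.30 ± 0.808 CPM in Y428F cells, of which *Cdh5* was the most abundant (log2 fold change 3.28, adjusted p = 1.13e-10) and the only one called of 3 tested. The epithelial markers summed to 0.624 ± 0.307 and 3.67 ± 0.799 CPM, with *Krt8* the most abundant (2.48, adjusted p = 2.4e-06) and *Epcam* at 0 in all libraries, and both of the 2 tested were called higher. Haematopoietic markers summed to 1.67 ± 0.114 and 3.56 ± 0.438 CPM, and 1 of 4 tested was called. That gene, *Ptprc*, was the most abundant (1.70, adjusted p = 2.37e-05), whereas *Cd68* (0.82), *Csf1r* (-0.98) and *Itgam* (-2.61) were not called and the list median was -0.08. Skeletal muscle markers summed to 4.55 ± 0.886 and 8.64 ± 1.42 CPM, most of it *Des*, the only one called of 3 tested. The stromal markers *Col3a1* (-2.04), *Vcam1* (-1.76), *Pdgfra* (-1.59) and *Pdgfrb* (-1.51) were lower in Y428F cells on the log2 scale. Of the 10 stromal markers tested with vehicle, 8 were lower and 2 were higher.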
